A study of Mus musculus with 12 samples.

Results

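The genes described here are 10 mouse genes chosen by name as components of the transcription factor AP-1 or as immediate-early genes. They are the Fos family (*Fos*, *Fosb*, *Fosl1* and *Fosl2*), the Jun family (*Jun*, *Junb* and *Jund*), and *Egr1*, *Ier3* and *Myc*. All 10 had reads in every library and were among the 12555 genes that passed the expression filter, of 35521 genes listed. Bulk RNA-Seq was done on 4T1, a mammary carcinoma line from BALB/c mice, in 3 groups of 4 libraries. In the first group, Gr1+ cells taken with a magnetic column from the tumor of 4T1 tumor-bearing BALB/c mice on day 21 primed the 4T1 cells for 48 hours across a Transwell membrane with 0.4 μm pores (Tu-Gr1+CD11b+–primed 4T1, Tu-primed below). In the second group the Gr1+ cells came from the spleen of such mice (Spl-Gr1+CD11b+–primed 4T1, Spl-primed below). The third group was parental 4T1 that met no Gr1+ cells. The groups share 1 established line of 1 mouse strain, 1 culture time and lysis in the well. The labels do not say whether the Gr1+ cells of different libraries came from different mice or whether the libraries of a group came from separate cultures, so the p-values measure the spread between these libraries, which may be technical. 

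AP-1 is a dimer that binds DNA through the leucine zipper proteins of the Jun and Fos families. Jun proteins pair with each other or with Fos proteins, and Fos proteins need a Jun partner. FOS and FOSB carry strong activation domains, whereas FOSL1 and FOSL2, also called FRA1 and FRA2, lack them and persist longer in growing or transformed cells. Immediate-early genes are switched on within minutes of a growth factor or cytokine signal, through MAP kinases and factors already in the cell, and usually fall back soon after, so that RNA taken after days of coculture shows their standing level and not the first wave. EGR1 is a zinc finger factor of this class, IER3 is a small protein that bears on survival and NF-κB signaling, and MYC is a leucine zipper factor that drives ribosome production and growth. In mammary carcinoma cells, FRA1 is known for its ties to invasion and the mesenchymal state.

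Each value is given as CPM, counts scaled to the library size by TMM normalization, and each fold change as log2 with its standard error (SE). A gene was called higher or lower when its p from edgeR's quasi-likelihood test, adjusted by Benjamini-Hochberg over all 12555 genes, was under 0.05. Libraries held between 24566183 and 31637755 reads. Libraries of one group always differed by more than sampling noise (chi-square of at least 3.43 per degree of freedom). Reads on retained-intron and nonsense-mediated decay transcripts made up between 5.37% and 6.13% of the total in the primed libraries and between 3.93% and 4.35% in parental ones. All 7 epithelial markers were tested, with *Krt8* at 871 ± 72.7 CPM (SD, n = 4) in Tu-primed, 1071 ± 26.0 CPM in Spl-primed and 1491 ± 298 CPM in parental cells and *Krt14* at 14 reads or fewer in every library. By edgeR 0 of the 7 were called between the primed groups (5 at an unadjusted p under 0.05, all lower in Tu-primed cells, 1 by DESeq2 and 0 by limma-voom), whereas 4 were lower in Tu-primed than in parental cells, and 1 was higher and 3 were lower in Spl-primed than in parental cells. Of 15 myeloid markers, 13 fell below the filter, 5 of these (*Camp*, *Ccr2*, *Elane*, *Mpo* and *Ngp*) at 0 reads in all 12 libraries. *Ly6g* had at most 3 reads, *Csf3r* at most 2 and *Itgam* at most 6 in any library. *Ly6c2*, also below the filter at 1 to 16 reads, stood at 0.488 ± 0.142 CPM in Tu-primed, 0.101 ± 0.0584 CPM in Spl-primed and 0.0595 ± 0.0253 CPM in parental cells, and the 10 alternatives that tested it all called it higher in Tu-primed than in Spl-primed (adjusted p between 0.00161 and 0.0174) and parental cells (adjusted p between 7.36e-05 and 0.000649). The summed myeloid level lay between 3.75 and 8.47 CPM in Tu-primed, between 3.67 and 5.63 CPM in Spl-primed and between 4.16 and 5.22 CPM in parental libraries. Of the 2 myeloid markers tested, *Cxcr2* was not called, and *S100a8* was higher in Tu-primed than in Spl-primed cells (2.83 ± 0.910 against 1.49 ± 0.319 CPM, adjusted p = 0.0270) and parental cells (adjusted p = 0.0345) in groups that overlapped. These calls were lost in 7 and 9 of 23 alternatives, without Tu-primed replicate 1, 2 or 3 each time, and *S100a9*, which encodes the usual partner of its protein, had at most 1 read. The part of the myeloid markers in the results was not tested. Of 10 markers of fibroblasts, endothelium, lymphocytes and red cells, 3 were at 0 and only *Pdgfra* passed the filter, with 86.9 ± 8.83, 56.4 ± 10.2 and 48.9 ± 5.64 CPM in the 3 groups. *Pdgfra* was higher in Tu-primed than in Spl-primed (adjusted p = 0.00530) and parental cells (adjusted p = 5.96e-05). With no filter, edgeR also called *Dcn* (adjusted p = 0.0461) and *Pecam1* (adjusted p = 0.0332) higher in Tu-primed than in parental cells. These had at most 12 and 8 reads in any library. *Dcn* stood at 0.257 ± 0.141, 0.0683 ± 0.0750 and 0.0509 ± 0.0606 CPM in the 3 groups, and *Pecam1* at 0.217 ± 0.0491, 0.197 ± 0.0481 and 0.0703 ± 0.0420 CPM. Neither was called between the primed groups. The part of these markers in the results was not tested. In such bulk samples, fewer cells of a type and less RNA per cell cannot be told apart.

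RefSeq promoter sequences (GRCm38.p6) were at hand for 7 of the 10 genes, namely *Fos*, *Fosb*, *Fosl2*, *Jun*, *Junb*, *Jund* and *Ier3*. Of the 5 genes called between the primed groups, the 4 with a sequence at hand are printed, and *Fosl1* had none. Each line gives the 250 bases before the annotated start, 5′ to 3′ on the strand of the gene, with the motif matches in capitals. The windows are chr12:85473640-85473889 on the plus strand for *Fos*, chr5:32136222-32136471 on the plus strand for *Fosl2*, chr17:35821463-35821712 on the plus strand for *Ier3* and chr7:19310046-19310295 on the minus strand for *Fosb*.
Fos: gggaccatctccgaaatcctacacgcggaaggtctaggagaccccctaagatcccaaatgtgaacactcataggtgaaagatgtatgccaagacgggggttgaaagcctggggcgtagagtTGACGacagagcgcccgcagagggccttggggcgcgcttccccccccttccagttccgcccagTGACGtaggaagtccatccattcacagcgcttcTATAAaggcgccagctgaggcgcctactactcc
Fosl2: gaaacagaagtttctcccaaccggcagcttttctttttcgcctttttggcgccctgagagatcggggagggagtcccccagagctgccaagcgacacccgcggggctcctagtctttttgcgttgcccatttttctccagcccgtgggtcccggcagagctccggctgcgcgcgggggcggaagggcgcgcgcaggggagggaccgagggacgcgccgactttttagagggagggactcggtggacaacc
Ier3: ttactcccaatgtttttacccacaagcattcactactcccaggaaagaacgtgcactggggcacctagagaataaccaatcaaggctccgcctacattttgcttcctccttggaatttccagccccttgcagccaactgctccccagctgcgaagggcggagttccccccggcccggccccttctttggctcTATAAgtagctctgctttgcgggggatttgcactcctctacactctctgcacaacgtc
Fosb: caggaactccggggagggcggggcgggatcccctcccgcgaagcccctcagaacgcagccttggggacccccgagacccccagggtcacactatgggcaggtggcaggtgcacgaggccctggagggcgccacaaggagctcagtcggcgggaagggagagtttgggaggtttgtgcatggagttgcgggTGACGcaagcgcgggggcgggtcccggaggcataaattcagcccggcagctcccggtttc
In *Fos* the capitals mark TGACG, the core of a cyclic AMP response element, from -129 to -125 and from -66 to -62 before the start, and TATAA from -33 to -29. *Fosb* holds TGACG from -60 to -56, and *Ier3* holds TATAA from -58 to -54. The *Fosl2* window holds none of the motifs searched, and neither does that of *Jund*. TGACG was also found in *Junb*, from -106 to -102, and *Jun* holds TGACNTCA, the form of the AP-1 site in its own promoter, from -45 to -38. Both strands were searched for 9 motifs, and of all 32851 promoters 17.8% held TGACG, 7.49% TGACNTCA and 22.8% TATAA. The AP-1 site TGACTCA (4.46% of all promoters), the full cyclic AMP response element TGACGTCA (1.55%), the STAT motif TTCNNNGAA (7.02%), the CArG box (1.47%), the E-box CACGTG (6.02%) and the EGR motif GCGTGGGCG (0.536%) had no match in the 7 windows. Bases farther upstream than 250 or past the start were not searched, so sites of these genes that lie there would be missed. TGACGTCA is one form of TGACNTCA and holds TGACG. The windows of *Fosb* (68.8% GC), *Junb* (66.4%), *Fosl2* (64.4%), *Jun* (61.2%), *Fos* (58.4%) and *Ier3* (54.4%) were richer in G and C than the median of all promoters (52.4%), and that of *Jund* (47.6%) was poorer. The RefSeq start of *Jund* lies at 70697739 and that of *Fosl2* at 32136472, whereas the GENCODE genes begin at 70698949 and 32135801. The *Jund* start thus lies outside the gene as annotated for counting, so its window belongs to another start site. The *Fosl2* start lies within the GENCODE gene. The starts of single GENCODE transcripts were not compared, so whether a counted *Fosl2* transcript begins there was not tested. Smaller shifts were present in *Ier3* (35821713 against 35821684), *Junb* (84978748 against 84978718) and *Fosb* (19310045 against 19310051), and the positions given count from the RefSeq start. The starts of *Fos* and *Jun* were the same in both.

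In Tu-primed against Spl-primed cells, which by the labels differ in the source of the Gr1+ cells alone, 3 of the 10 genes were higher (*Fos*, *Fosl2* and *Ier3*), against 4.66% of all genes tested. *Fosb* and *Fosl1* were lower, against 2.97% of all genes, and the other 5 genes were not past the threshold. The Fos family thus held 2 members called higher and 2 called lower. Without Tu-primed replicate 2 or 3 neither *Fosb* nor *Fosl1* was called, and without Tu-primed replicate 3 *Fos* was not called either and *Egr1* was. The 3 higher genes stood above the Spl-primed libraries without overlap and the 2 lower genes below them, where 8.51% of all genes did not overlap in each direction. The median log2 fold change of the 10 genes was 0.01, and that of all genes -0.01. With RLE or upper-quartile normalization 3 were higher and 1 lower.

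Against parental cells, 4 genes were higher in Tu-primed cells (*Fos*, *Fosl2*, *Egr1* and *Ier3*), where 31.2% of all genes were higher, and 2 were lower (*Fosb* and *Jund*), where 28% were lower. The same 6 genes were those whose groups did not overlap, where 28.6% of all genes lay above and 26.9% below. In Spl-primed cells 4 genes were higher than in parental cells (*Fos*, *Egr1*, *Ier3* and *Myc*), against 25.7% of all genes, and *Jund* was lower, against 22.5%. Here 5 genes lay above the parental libraries, the fifth being *Fosl1*, and 1 below, against 21.3% and 18.3% of all genes. The median log2 fold change of the 10 genes was 0.17 in Tu-primed and 0.14 in Spl-primed cells, and that of all genes 0.02 in both. A further fit used protein-coding transcripts alone, leaving out the retained-intron and decay transcripts that differ in share. In Tu-primed cells 5 of the 10 genes were then higher and 2 lower, where 3339 of all 11826 genes were higher and 3071 lower. In Spl-primed cells 6 of the 10 were higher and 1 lower, where 2679 of all genes were higher and 2317 lower. Both comparisons used the same 4 parental libraries, so their values stand side by side and are not independent.

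**Figure D1:**
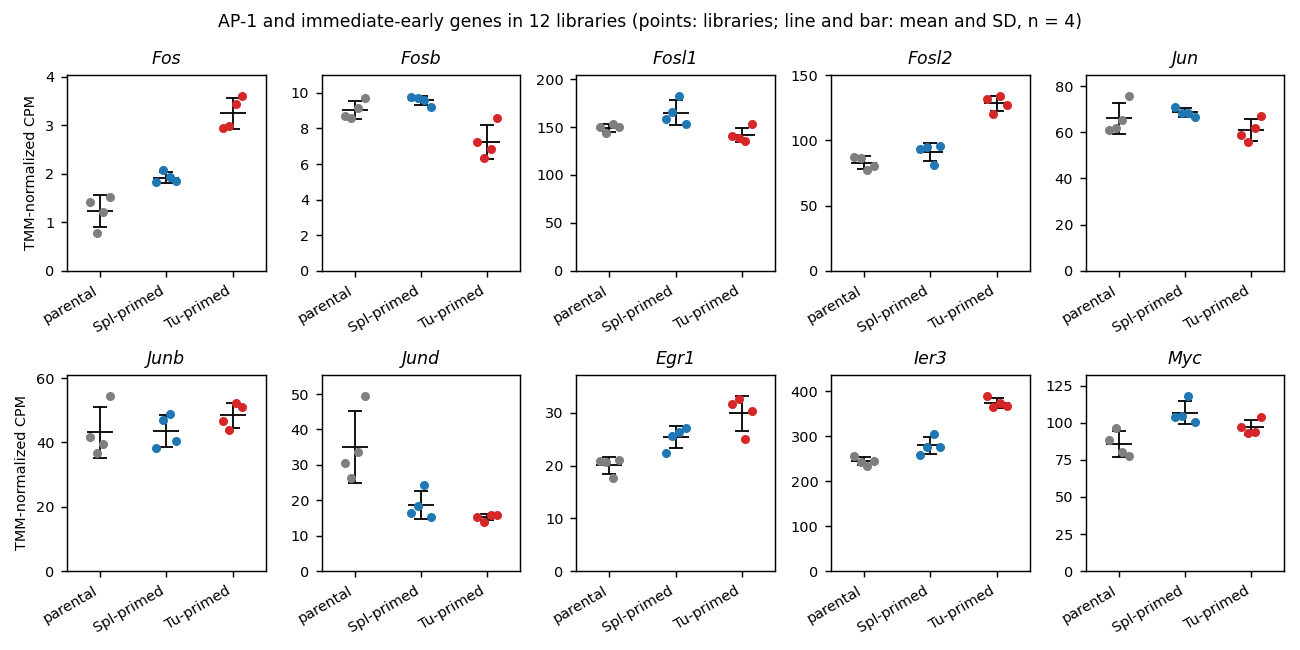
TMM-normalized CPM (linear axes from 0) of the 10 genes in each library, grouped as parental, Spl-primed and Tu-primed, with the mean and SD of 4 libraries. *Fos*, *Fosl2* and *Ier3* lie highest in every Tu-primed library, *Fosb* lies lowest there, and *Jund* lies highest in the parental libraries, 1 of which stands at 49.5 CPM.

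Fos, the founding member of its family, was the least abundant gene of the 10. *Fos* (ENSMUSG00000021250, chromosome 12 of GRCm38 from 85473890 to 85477273) stood at 2.95, 2.99, 3.43 and 3.61 CPM in the Tu-primed libraries, at 1.82, 2.07, 1.92 and 1.84 CPM in the Spl-primed ones and at 1.42, 0.783, 1.22 and 1.52 CPM in the parental ones. The 3 groups did not overlap, with every Tu-primed library highest and every parental library lowest. These values rest on 19 to 104 reads per library. The log2 fold change was 0.76 (SE 0.18, adjusted p = 0.0164) in Tu-primed against Spl-primed cells, 1.39 (SE 0.19, adjusted p = 2.95e-05) in Tu-primed against parental cells and 0.63 (SE 0.19, adjusted p = 0.0151) in Spl-primed against parental cells. The first of these calls was lost without Tu-primed replicate 3 (adjusted p = 0.0580) and with DESeq2 and transcript length offsets (adjusted p = 0.133), within a range of 0.000832 to 0.133 over 23 alternatives. Reads on the shorter noncoding transcripts of *Fos* were assigned in only 3 libraries, between 4.00 and 7.82 of them.

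Fosl2 encodes FRA2, and it was higher in Tu-primed cells than in both other groups. *Fosl2* (ENSMUSG00000029135, chromosome 5 from 32135801 to 32157842) stood at 131, 120.4, 134 and 127 CPM in the Tu-primed libraries, at 93.1, 94.8, 80.8 and 95.9 CPM in the Spl-primed ones and at 87.5, 86.2, 77.4 and 80.5 CPM in the parental ones. The Tu-primed libraries lay far above both other groups, which overlapped each other. Its log2 fold change was 0.49 (SE 0.06, adjusted p = 0.000273), or 1.41-fold, against Spl-primed cells and 0.63 (SE 0.06, adjusted p = 3.50e-06), or 1.55-fold, against parental cells. Both calls held in all 23 alternatives. Spl-primed cells differed from parental cells by 0.14 (SE 0.06, adjusted p = 0.0955), which 3 of the 23 alternatives called, without Spl-primed replicate 3 among them (adjusted p = 0.0134, range 0.0134 to 0.588).

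Fosb moved the other way. *Fosb* (ENSMUSG00000003545, chromosome 7 from 19302696 to 19310051) stood at 7.24, 6.33, 6.85 and 8.57 CPM in the Tu-primed libraries, at 9.79, 9.73, 9.59 and 9.18 CPM in the Spl-primed ones and at 8.70, 8.61, 9.14 and 9.71 CPM in the parental ones. All 4 Tu-primed libraries were lowest, Tu-primed replicate 4 by a narrow margin, and the Spl-primed and parental libraries overlapped. *Fosb* fell by 0.40 on the log2 scale (SE 0.09, adjusted p = 0.0144) against Spl-primed and by 0.32 (SE 0.09, adjusted p = 0.00880) against parental cells, while the difference between Spl-primed and parental cells was 0.08 (adjusted p = 0.464, 95% interval -0.11 to 0.28). The call against Spl-primed cells was lost without Tu-primed replicate 2 (adjusted p = 0.0570) or 3 (adjusted p = 0.0572) and with length offsets (adjusted p = 0.375, the highest of a range from 0.00179), and the call against parental cells was lost with length offsets (adjusted p = 0.303, range 0.00102 to 0.303).

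Fosl1 encodes FRA1 and made up most of the Fos family RNA in these cells. *Fosl1* (ENSMUSG00000024912, chromosome 19 from 5447547 to 5455946) stood at 140.7, 138.7, 135.4 and 152.8 CPM in the Tu-primed libraries, at 158.4, 165.5, 182.9 and 153.4 CPM in the Spl-primed ones and at 150.6, 143.3, 152.9 and 149.9 CPM in the parental ones. The Spl-primed libraries were highest, but their lowest value lay within 1 CPM of the highest value of each of the other groups. *Fosl1* was lower in Tu-primed than in Spl-primed cells by a log2 fold change of -0.22 (SE 0.06, adjusted p = 0.0424), a call lost in 14 of 23 alternatives (adjusted p between 0.0150 and 0.146). Among these were the fits without Tu-primed replicate 1, 2 or 3 (0.113, 0.127 and 0.146), without Spl-primed replicate 1, 2 or 3 (0.0548, 0.0933 and 0.128) and without parental replicate 1 or 3 (0.0623 and 0.0534). Against parental cells its log2 fold change was -0.07 (adjusted p = 0.326) in Tu-primed and 0.15 (SE 0.06, adjusted p = 0.0607) in Spl-primed cells, and the latter was called in 4 of 23 alternatives, without Spl-primed replicate 4 among them (adjusted p = 0.0387, range 0.0224 to 0.249). *Ccdc85b* overlaps *Fosl1* on the other strand at 140 to 389 reads, and whether the counting used strand is not given in the sources used here.

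Levels of different genes were compared within a library as TPM, which is scaled per transcript length. The mean transcript length weighted by TPM ran from 983 to 1156 bases in parental and from 1193 to 1349 bases in primed libraries, which shifts every TPM between these groups, so only shares within a family are given. *Fosl1* held 77.1% ± 1.01 (SD, n = 4) of the Fos family TPM in Tu-primed, 83.5% ± 2.13 in Spl-primed and 83.5% ± 1.41 in parental cells. *Fosl2* held 19.1% ± 0.757, 13.0% ± 2.04 and 13.3% ± 1.28, in the same order. *Fosb* held 2.24% ± 0.356, 2.54% ± 0.335 and 2.62% ± 0.319, and *Fos* held 1.56% ± 0.217, 0.975% ± 0.191 and 0.590% ± 0.149. The order of the 4 genes was thus the same in every group by their means, with *Fosl1* far above *Fosl2*. The ranges of *Fosl2* did not overlap between Tu-primed (lowest 18.1%) and Spl-primed libraries (highest 14.4%), whereas those of *Fosb* overlapped in all 3 groups.

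**Figure D2:**
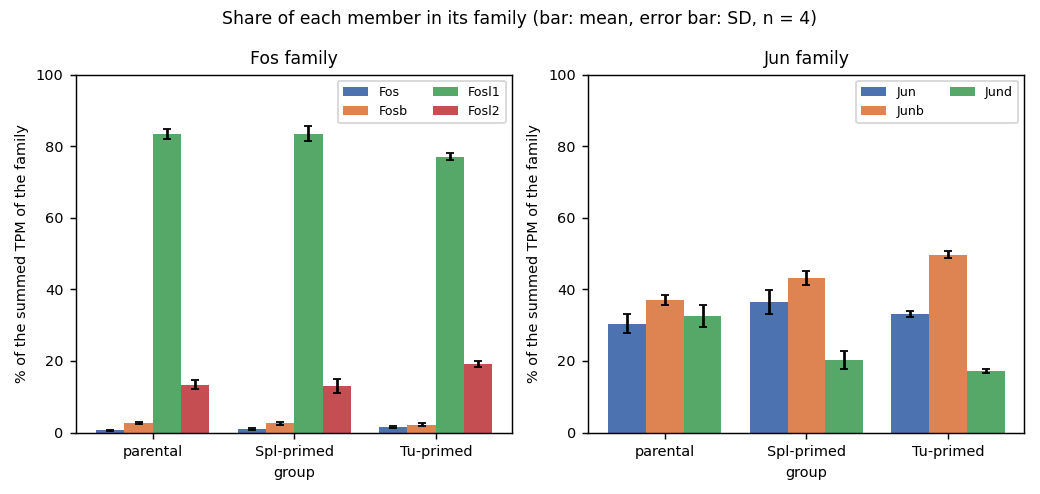
Share of each gene in the summed TPM of its family in percent (bars: mean of 4 libraries, error bars: SD), for the Fos family on the left and the Jun family on the right. *Fosl1* holds between 77.1% and 83.5% of the Fos family by group means, and *Jund* holds 32.6% of the Jun family in parental and 17.2% in Tu-primed cells.

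Of the 3 Jun family genes, 0 were called between the primed groups by edgeR, DESeq2 or limma-voom, and 1, *Jun*, had an unadjusted p under 0.05. *Jun* (ENSMUSG00000052684, chromosome 4 from 95049034 to 95052222), the partner that most Fos proteins bind, stood at 59.0, 55.9, 61.8 and 66.8 CPM in the Tu-primed libraries, at 71.1, 68.5, 68.5 and 66.4 CPM in the Spl-primed ones and at 61.1, 61.8, 65.4 and 75.9 CPM in the parental ones. All 3 groups overlapped. The log2 fold changes were -0.17 (SE 0.07, adjusted p = 0.164, 95% interval -0.33 to -0.02) in Tu-primed against Spl-primed, -0.12 (adjusted p = 0.176) in Tu-primed against parental and 0.06 (adjusted p = 0.541) in Spl-primed against parental cells, and none was called in any of 23 alternatives.

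*Junb* (ENSMUSG00000052837, chromosome 8 from 84974484 to 84978718), whose protein is a weaker activator than JUN and can hold it back, stood at 46.6, 43.9, 52.3 and 50.9 CPM in the Tu-primed libraries, at 38.2, 46.8, 48.7 and 40.4 CPM in the Spl-primed ones and at 41.8, 36.7, 39.5 and 54.5 CPM in the parental ones. The highest library of all was parental replicate 4, and the groups overlapped. The log2 fold changes were 0.15 (SE 0.11, adjusted p = 0.457), 0.17 (SE 0.11, adjusted p = 0.218) and 0.01 (SE 0.11, adjusted p = 0.933) in the same order of comparisons. Without parental replicate 4, *Junb* was higher in Tu-primed than in parental cells (log2 fold change 0.30, adjusted p = 0.0138, range over 23 alternatives 0.0138 to 0.486). *Prdx2* overlaps *Junb* on the other strand with 7063 to 9610 reads, and was lower in both primed groups than in parental cells (log2 fold change -0.34, adjusted p = 0.00151, and -0.35, adjusted p = 0.00190).

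*Jund* (ENSMUSG00000071076, chromosome 8 from 70698949 to 70700616), the Jun gene that most cells transcribe steadily and that is tied to slow growth, stood at 15.3, 13.9, 15.8 and 15.8 CPM in the Tu-primed libraries, at 16.5, 18.5, 24.4 and 15.3 CPM in the Spl-primed ones and at 30.6, 26.3, 33.6 and 49.5 CPM in the parental ones. Every parental library lay above every primed one, and the primed groups overlapped each other. Parental replicate 4, highest in *Jund*, had the shortest mean transcript length weighted by TPM of all libraries (983 bases). Spl-primed replicate 3, highest in *Jund* of the primed libraries, had the shortest of these (1193 bases). The part of this length difference in the level of *Jund* was not tested. *Jund* fell by 1.20 on the log2 scale in Tu-primed cells (SE 0.18, adjusted p = 5.85e-05), to 0.435 of the parental level, and by 0.91 in Spl-primed cells (SE 0.17, adjusted p = 0.000784), to 0.533 of it. Both calls held in all 23 alternatives, with log2 fold changes from -1.32 to -0.99 and from -1.08 to -0.70. The primed groups differed by -0.29 (SE 0.18, adjusted p = 0.360, 95% interval -0.67 to 0.09).

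Within the Jun family, *Junb* held 49.7% ± 0.928 of the TPM in Tu-primed, 43.3% ± 1.94 in Spl-primed and 37.0% ± 1.37 in parental cells. *Jun* held 33.2% ± 0.909, 36.5% ± 3.35 and 30.4% ± 2.63, and *Jund* held 17.2% ± 0.441, 20.3% ± 2.52 and 32.6% ± 3.04. *Junb* was thus the leading Jun gene by mean in each group, and the ranges of its share did not overlap between any of the 3 groups, although its CPM did. A share depends on the levels of all 3 genes. Of these, edgeR called only *Jund* against parental cells, lower in both primed groups, and did not call *Junb* in any comparison.

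**Figure D3:**
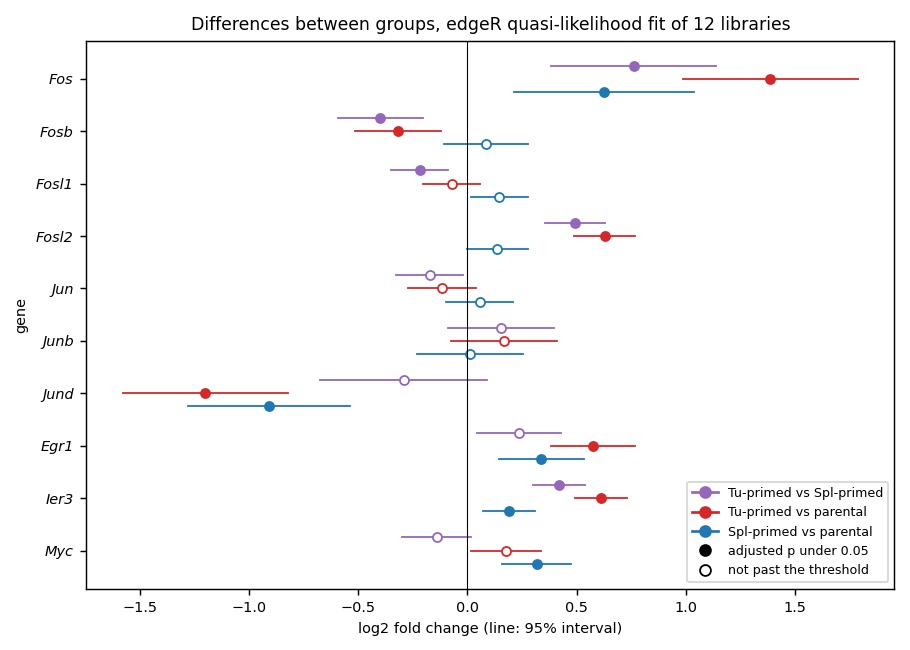
Log2 fold change of the 10 genes in the 3 comparisons from edgeR's quasi-likelihood fit of 12 libraries, with 95% intervals (filled points: adjusted p under 0.05). *Fos*, *Fosl2* and *Ier3* lie right of 0 in Tu-primed against both other groups, *Fosb* lies left of 0 in both, and *Jund* lies left of 0 in both comparisons with parental cells.

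*Ier3* was the most abundant of the 10 genes in every group, by mean CPM and by mean TPM. *Ier3* (ENSMUSG00000003541, chromosome 17 from 35821684 to 35822923) stood at 390.1, 365, 375 and 368 CPM in the Tu-primed libraries, at 259, 277, 306 and 277 CPM in the Spl-primed ones and at 257, 243, 234 and 246 CPM in the parental ones. The groups followed each other without overlap, the Tu-primed libraries well apart and the Spl-primed libraries just above the parental ones. Its log2 fold change was 0.42 (SE 0.06, adjusted p = 0.000273), or 1.34-fold, in Tu-primed against Spl-primed cells. Against parental cells it was 0.61 (SE 0.06, adjusted p = 1.30e-06) in Tu-primed and 0.19 (SE 0.06, adjusted p = 0.0111) in Spl-primed cells. The calls of Tu-primed cells against both other groups held in all 23 alternatives.

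*Egr1* (ENSMUSG00000038418, chromosome 18) stood at 31.6, 32.6, 25.1 and 30.3 CPM in the Tu-primed libraries, at 22.3, 25.6, 26.4 and 27.2 CPM in the Spl-primed ones and at 20.9, 20.6, 17.7 and 21.0 CPM in the parental ones. Both primed groups lay above the parental libraries, and they overlapped each other through Tu-primed replicate 3. *Egr1* was higher than in parental cells by 0.58 (SE 0.09, adjusted p = 0.000103) in Tu-primed and by 0.34 (SE 0.09, adjusted p = 0.00705) in Spl-primed cells, both in all 23 alternatives. Between the primed groups the log2 fold change was 0.24 (SE 0.09, adjusted p = 0.126, 95% interval 0.05 to 0.43), and without Tu-primed replicate 3 it was 0.31 (adjusted p = 0.0456, range over 23 alternatives 0.0456 to 0.306).

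*Myc* (ENSMUSG00000022346, chromosome 15 from 61985391 to 61990374) stood at 97.1, 92.8, 93.7 and 103.9 CPM in the Tu-primed libraries, at 103.7, 104.8, 118.1 and 100.5 CPM in the Spl-primed ones and at 88.5, 96.4, 80.3 and 77.6 CPM in the parental ones. The Spl-primed libraries lay above all parental ones, and the Tu-primed libraries overlapped both other groups. *Myc* was higher in Spl-primed than in parental cells (log2 fold change 0.32, SE 0.07, adjusted p = 0.00317), in all 23 alternatives. In Tu-primed cells the log2 fold change was 0.18 against parental cells (SE 0.07, adjusted p = 0.0539), called in 7 of 23 alternatives, without Spl-primed replicate 3 (adjusted p = 0.0214) and parental replicate 2 (adjusted p = 0.0109, range 0.0109 to 0.153) among them, and -0.14 against Spl-primed cells (SE 0.07, adjusted p = 0.283). Among its transcripts, Myc-204 was assigned between 706 and 876 reads in Tu-primed, between 847 and 1219 in Spl-primed and between 363 and 638 in parental libraries. Myc-202 was assigned 0 reads in 5 libraries and up to 449 in the others, so the split between the *Myc* transcripts is uncertain.

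Other genes of the pathway were taken from hand-written lists. Of 19 kinases and factors upstream of the immediate-early genes, all tested, 0 were called between the primed groups by edgeR (at an unadjusted p under 0.05, 1 was higher and 2 were lower in Tu-primed cells, and DESeq2 and limma-voom each called 1 higher), whereas 7 were higher and 3 lower in Tu-primed than in parental cells and 4 higher and 3 lower in Spl-primed than in parental cells. The share higher was 36.8% in Tu-primed and 21.1% in Spl-primed cells, near the 31.2% and 25.7% of all genes, so the counts of higher genes do not set the list apart. The share lower was 15.8% in both primed groups, against 28% and 22.5% of all genes. Of 12 AP-1 partners, which are other leucine zipper factors that pair with Jun or Fos proteins, 10 were tested. Against parental cells, 5 AP-1 partners were higher and 1 lower in Tu-primed cells, and 3 were higher in Spl-primed cells, where 31.2%, 28% and 25.7% of all genes were.

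Of 21 other immediate-early genes, 18 were tested and 1 was called between the primed groups. It was higher in Tu-primed cells and makes up 5.56% of the list, near the 4.66% of all genes. This was *Plk2*, a kinase of centriole duplication and stress, at 40.7 ± 2.35 CPM in Tu-primed, 33.0 ± 2.22 CPM in Spl-primed and 32.4 ± 2.60 CPM in parental cells (log2 fold change against Spl-primed cells 0.31, SE 0.07, adjusted p = 0.0149). This call was lost without Tu-primed replicate 1 or 3 or Spl-primed replicate 2 (highest adjusted p over 23 alternatives 0.0593, lowest 0.000547). Against parental cells, 8 of the 18 were higher and 3 lower in Tu-primed cells (44.4% and 16.7%, against 31.2% and 28% of all genes), and 6 were higher and 1 lower in Spl-primed cells (33.3% and 5.56%, against 25.7% and 22.5%). The median log2 fold change of the list was -0.04 between the primed groups and 0.18 and 0.14 against parental cells.

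Genes known as AP-1 targets were the list with the most genes higher in Tu-primed than in Spl-primed cells. Of 18, 16 were tested and 6 were higher (*Areg*, *Hmox1*, *Mmp13*, *Mmp3*, *Ptgs2* and *Vegfa*) with 0 lower (1 at an unadjusted p under 0.05, 1 by DESeq2 and 0 by limma-voom), and the list median was 0.18. The 6 make up 37.5% of the list, against 4.66% of all genes. The call of *Hmox1* held in 15 of 23 alternatives and that of *Ptgs2* in 17. Between 4 and 6 of the list were higher when single libraries were left out, where between 402 and 662 of all genes were. *Mmp13*, a collagenase, stood at 32.01 ± 2.94 CPM in Tu-primed, 11.9 ± 1.36 CPM in Spl-primed and 6.41 ± 2.54 CPM in parental cells. It was higher by 1.43 on the log2 scale (SE 0.19, adjusted p = 0.000273) against Spl-primed and by 2.32 (SE 0.20, adjusted p = 9.38e-07) against parental cells. *Areg*, a ligand of the EGF receptor, stood at 72.1 ± 8.32, 47.3 ± 4.14 and 42.1 ± 5.59 CPM, higher by 0.61 (SE 0.10, adjusted p = 0.00175) than in Spl-primed cells. *Mmp3*, stromelysin 1, was far more abundant at 1361 ± 36.0, 1117 ± 71.3 and 1230 ± 38.3 CPM, and it was higher in Tu-primed than in Spl-primed cells by 0.29 (SE 0.05, adjusted p = 0.00481). Compared with parental cells, *Mmp3* was higher in Tu-primed (0.15, adjusted p = 0.0318) and lower in Spl-primed cells (-0.14, adjusted p = 0.0477). These calls held in 14 and 9 of 23 alternatives. *Hmox1* was not called in Tu-primed against parental cells (0.01, adjusted p = 0.879). It was lower in Spl-primed than in parental cells (-0.26, adjusted p = 0.00830). Against parental cells, 10 of the 16 were higher and 2 lower in Tu-primed cells (62.5% and 12.5%, against 31.2% and 28% of all genes), and 6 were higher and 5 lower in Spl-primed cells (37.5% and 31.2%, against 25.7% and 22.5%).

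For EGR1, the list held its corepressors *Nab1* and *Nab2*, of which 0 were called between the primed groups by edgeR, DESeq2 or limma-voom (0 at an unadjusted p under 0.05), while *Nab1* was lower and *Nab2* higher in both primed groups than in parental cells. Of 12 genes of the MYC network, 11 were tested and 2 were higher in Tu-primed than in Spl-primed cells (18.2%, against 4.66% of all genes). These were *Mxd4* and *Mxi1*, whose proteins compete with MYC for its partner MAX. *Mxd4* stood at 22.2 ± 1.44, 16.5 ± 2.31 and 14.5 ± 0.609 CPM in Tu-primed, Spl-primed and parental cells (log2 fold change against Spl-primed cells 0.42, SE 0.09, adjusted p = 0.00870), and *Mxi1* at 41.1 ± 0.916, 34.7 ± 3.40 and 27.6 ± 1.05 CPM (0.25, SE 0.06, adjusted p = 0.0311). The call of *Mxi1* was lost without any 1 of the Tu-primed replicates or without Spl-primed replicate 1 or 3, and in 8 of 23 alternatives in all (adjusted p between 0.00872 and 0.514). Against parental cells, 4 genes of the network were higher and 1 lower in Tu-primed cells, and 3 were higher and 1 lower in Spl-primed cells. The shares higher (36.4% and 27.3%) were near those of all genes (31.2% and 25.7%). The share lower was 9.09% in both primed groups, against 28% and 22.5% of all genes.

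Of 20 genes known as MYC targets, mostly of ribosome production, 0 were higher (0 at an unadjusted p under 0.05, by DESeq2 or by limma-voom) and 10 lower in Tu-primed than in Spl-primed cells, with a list median of -0.23, where 2.97% of all genes were lower. The number lower rested on single libraries, as did that of all genes, which was 373 with all 12 libraries. It was 3, 1 and 0 without Tu-primed replicate 1, 2 and 3, where 162, 137 and 118 of all genes were lower. Without Spl-primed replicate 1, 2 and 3 it was 4, 3 and 4, where 241, 209 and 259 of all genes were lower. Without Spl-primed replicate 4 it was 12, where 404 of all genes were lower. *Polr1b*, a subunit of RNA polymerase I, stood at 50.4 ± 2.26, 58.2 ± 2.07 and 69.5 ± 1.41 CPM (log2 fold change against Spl-primed cells -0.21, SE 0.05, adjusted p = 0.0146). *Rrp9*, a factor of ribosomal RNA processing, stood at 28.5 ± 2.07, 39.3 ± 6.73 and 52.7 ± 5.40 CPM (-0.46, SE 0.11, adjusted p = 0.0164), and *Srm*, spermidine synthase, at 64.3 ± 4.74, 86.7 ± 14.6 and 117 ± 9.69 CPM (-0.43, SE 0.10, adjusted p = 0.0183). Against parental cells, 1 was higher and 15 lower in Tu-primed cells (median -0.45), and 2 were higher and 12 lower in Spl-primed cells (median -0.27), in which *Myc* itself was higher. The shares lower were 75.0% and 60.0%, against 28% and 22.5% of all genes.

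**Figure D4:**
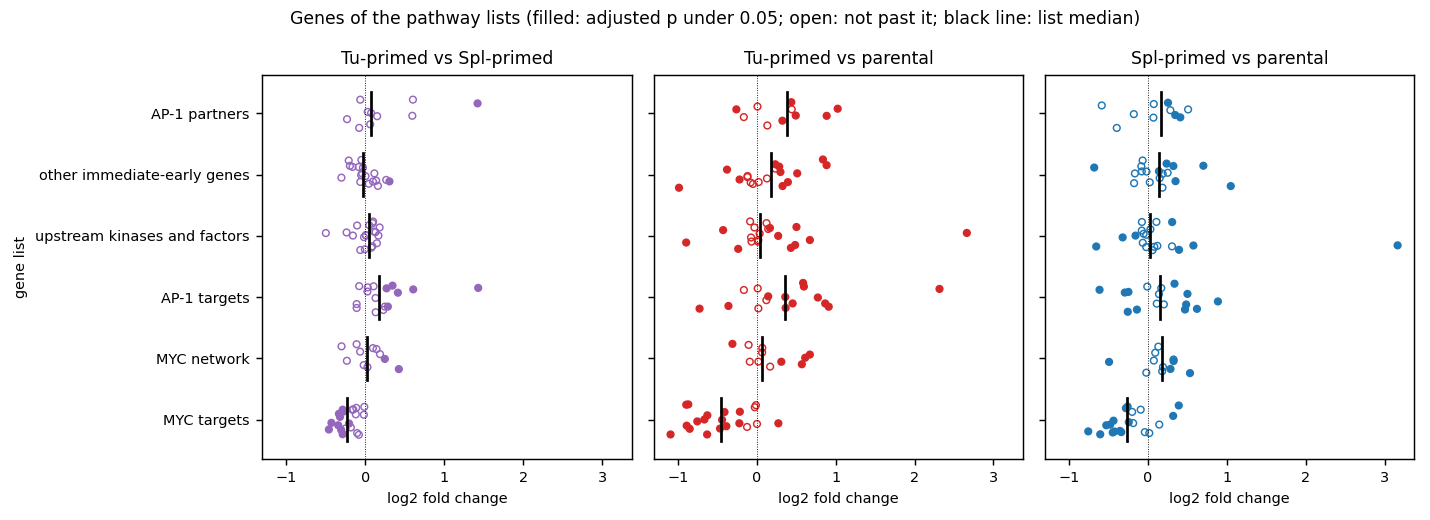
Log2 fold change of each tested gene of 6 pathway lists in the 3 comparisons (filled points: adjusted p under 0.05 by edgeR, black lines: list medians). The MYC targets lie mostly left of 0 in each panel, with medians from -0.45 to -0.23, and 6 AP-1 targets are filled on the right in Tu-primed against Spl-primed cells. The single point at 3.16 is *Mkl1* (now *Mrtfa*), singled out after its values were seen, which had 17 reads or fewer in every library and 0 in some.

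For the 5 genes called between the primed groups, the genes of most similar pattern were sought among all tested genes by the root mean square difference of log2 CPM, centred on each gene's mean, over the 12 libraries. Closest to *Fosl2* were *Prss12* (0.0708), *1110032A03Rik* (0.0715) and *Rab11fip2* (0.0725). *Prss12*, which encodes the protease neurotrypsin, was also among the closest to *Ier3* (0.0773), after *Qsox1* (0.0709) and before *H2-Q4* (0.0791). *Prss12* stood at mean levels of 105, 78.0 and 71.4 CPM in Tu-primed, Spl-primed and parental cells. Closest to *Fos* were *Mettl7b* (0.192), *Sbno2* (0.224) and *Spata1* (0.244), closest to *Fosb* were *S1pr2* (0.0712), *Rbm38* (0.0809) and *2310022A10Rik* (0.0857), and closest to *Fosl1* were *Ppp5c* (0.0272), *Pigs* (0.0417) and *Rhod* (0.0417). The larger distances of *Fos* go with its low counts.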

How the data were processed

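Bulk RNA-Seq libraries were made with TruSeq Stranded RNA. The authors deposited, for each library, estimated counts of reads per Ensembl transcript, not normalized, with TPM values scaled for transcript length and depth, and effective lengths. The submitters' processing notes name FastQC, Trimmomatic 0.39, Salmon 1.4.0 and GRCm38/mm10, and the annotation release is not given in the sources used here. A deposited table of normalized counts per gene was not used.

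Estimated counts were summed per gene with GENCODE M21 (116021 of 117081 transcripts matched, leaving 0.326% to 0.419% of reads out) and rounded. The 12 libraries, of 24566183 to 31637755 reads, entered 1 fit of edgeR 4.0.16 (R 4.3.3) with filterByExpr (12555 genes), TMM factors (0.88 to 1.05) and the quasi-likelihood test, adjusted by Benjamini-Hochberg within each of 3 comparisons (threshold 0.05). SE is the log2 fold change over the root of F. Replicate spread over 4 libraries gives the precision. For a count of 0 the limit is 3 counts (at most 0.122 CPM, counting error only). Scripts were tested on simulated data. Plots were drawn with matplotlib 3.10.9 in Python 3.11.15 (pandas 2.3.3, numpy 2.4.6).

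The 10 genes and the lists were chosen with earlier results of these data known. All 10 genes are named, and up to 3 genes of each other list, those with the smallest p among its genes called in Tu-primed against Spl-primed cells. For each of the 10 called there, the 3 tested genes outside the 10 that were closest in pattern are also named. Markers, *Nab1*, *Nab2*, *Mkl1*, overlapping genes and the other AP-1 targets called were named besides. The result of 1 listed gene is not reported here. The motifs TGACG, TGACNTCA and TATAA were added after the other 6 had given no match. *Mkl1* and *Mkl2* were matched to *Mrtfa* and *Mrtfb* by RefSeq synonyms.

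Alternatives were DESeq2 1.42.0, limma-voom (limma 3.58.1), upper-quartile or RLE factors, no filter on low counts, a minimum of 10 counts in each library, a fit of the 8 libraries compared, a replicate block, a threshold of 0.01, protein-coding transcripts only, DESeq2 with transcript length offsets, and each library left out.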

Additional observations from a re-analysis of the deposited data

Results flagged for a closer look

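Parental replicate 3 stood apart from the other parental libraries in *Egr1*, at 17.7 CPM against 20.6 CPM for the next lowest library, a gap of 0.896 of the range of the group and past Dixon's critical value for 4 samples. It was the only one of 30 sets of 4 libraries (10 genes in 3 groups) that stood out in this way, and chance gives about 1 in 20. The calls of *Egr1* against parental cells held without that library.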

How the results depend on the processing

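The number of the 10 genes called lower in Tu-primed than in Spl-primed cells, 2, became 1 with RLE or upper-quartile normalization, with no filter, with only the 8 libraries compared, with DESeq2 and length offsets and with the replicate block, and 0 at an adjusted p under 0.01. It ranged from 0 to 2 when single libraries were left out, being 0 without Tu-primed replicate 2 or 3, where *Fosb* and *Fosl1* were both lost. Without these replicates, 137 and 118 of all genes were lower, against 373 with all 12 libraries. The number lower in Tu-primed than in parental cells, 2, became 1 with length offsets. The number higher in Spl-primed than in parental cells, 4, became 2 at an adjusted p under 0.01, 5 with at least 10 counts in every library and 6 with upper-quartile normalization or protein-coding transcripts only. The number higher in Tu-primed than in Spl-primed cells, 3, became 2 at an adjusted p under 0.01 and with length offsets, where *Fos* was lost. With single libraries left out, the counts of higher genes were 3 in Tu-primed against Spl-primed cells, though not of the same genes, since without Tu-primed replicate 3 *Fos* was lost and *Egr1* gained, and ran from 4 to 5 in both comparisons with parental cells, while the count of lower genes there was 2 in Tu-primed and 1 in Spl-primed cells. The cause of these changes was not tested. The log2 fold change of *Junb* in Spl-primed against parental cells, 0.01 and not called, reversed to -0.0128 with DESeq2, -0.0132 with RLE, -0.0115 with no filter and -0.0152 with length offsets, and it ran from -0.0634 to 0.145 with single libraries left out, below 0 without Spl-primed replicate 2 or 3 or parental replicate 1, 2 or 3. Over all values of single genes under the alternatives, 641 kept their direction and their side of the threshold, 16 came past it, 24 fell behind it and 9, all of *Junb*, reversed. The 10 MYC targets lower in Tu-primed than in Spl-primed cells became 6 with no filter, 4 in the replicate block and 0 at an adjusted p under 0.01, and the 6 AP-1 targets higher there ranged from 4 to 8 over all alternatives. Over all genes, 255 were lower with no filter (of 18689 tested), 256 in the replicate block and 96 at an adjusted p under 0.01. Replicate numbers are shared between groups, and the correlation of the deviations of same-numbered libraries lay between -0.164 and 0.148. It was positive in all 4 pairs of Tu-primed and parental libraries (0.148, 0.0839, 0.0877 and 0.134), but not over 0.1 in every pair of any 2 groups, so the numbers were not taken to pair the libraries. In the replicate block, *Fosl1* in Tu-primed against Spl-primed cells was lost (log2 fold change -0.22, adjusted p = 0.0870, range over its alternatives 0.0150 to 0.146). With their own number, 3 of 4 Tu-primed libraries correlated best among the parental ones, 2 of 4 parental libraries among the Tu-primed ones, and 0 or 1 of 4 in the other groups compared. The depth limits *Fos*, with as few as 19 reads in a library.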
